A study of Rattus norvegicus with 6 samples.

Results

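Interleukin-1 beta (Il1b), interleukin-6 (Il6) and the chemokines Ccl2, Cxcl1 and Cxcl2 were examined in RNA sequencing of the rat median eminence, 1 day after the surgery that the labels call PEL and in control tissue. They are 5 of the 34510 rows of a table of read counts per gene, chosen by Ensembl identifier: ENSRNOG00000004649 for Il1b, ENSRNOG00000010278 for Il6, ENSRNOG00000007159 for Ccl2, ENSRNOG00000002802 for Cxcl1 and ENSRNOG00000002792 for Cxcl2. The table gives no gene symbols, so these names rest on the list by which the genes were chosen. The median eminence is the part of the hypothalamic floor where axons release hormones into vessels that lead to the pituitary. Both groups came from S-D rats and held 3 samples each: PEL replicates 1 to 3, and Control replicates 1 to 3. The labels give no age or sex, do not spell out PEL, and do not say whether control animals had a sham operation or whether tissue of several animals was pooled.

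After injury, interleukin-1 beta and interleukin-6 are made early by microglia, astrocytes, vessel cells and incoming leukocytes, and act on neighbouring cells through their own receptors. Ccl2, a CC chemokine also known as MCP-1, draws monocytes through the receptor Ccr2. Cxcl1 and Cxcl2, CXC chemokines also known in the rat as CINC-1 and MIP-2, draw neutrophils through Cxcr2. NF-kB is a transcription factor known to switch on genes of this kind, and the median eminence has leaky capillaries, which place it outside the blood-brain barrier.

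Of the 5 genes, Ccl2 alone passed the edgeR test with all 6 libraries, which called 4.44% of rows higher. The call was lost when any single control library or PEL replicate 1 was left out, and with another test, limma-voom. Ccl2 was higher in each of the 3 PEL libraries than in any control library, by 17.7-fold in the fitted comparison. Cxcl1 and Il6 were also above every control value in each PEL library, but on few reads, and Il1b and Cxcl2 had values that overlapped between the groups. All 5 genes were highest in PEL replicate 2, and Ccl2 alone exceeded the pooled controls by more than counting error in both other PEL libraries. Cxcl1 did so in replicate 3 but not replicate 1, and Il6 in replicate 1 but not replicate 3, on few reads. Only Il1b and Ccl2 had enough reads for the test across all genes, which required about 10 reads in at least 3 libraries.

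Libraries held 13756297 to 17144108 assigned reads. Values below are CPM, read counts brought to a common library total, scaled by TMM over all rows of the table to correct for library composition. The error bars on single libraries are 95% exact Poisson intervals, which cover counting error only. Where a library had 0 reads, a limit of 3 reads allows 0.178 to 0.218 CPM, depending on the library. On the first principal component of all rows tested, PEL replicate 2 lay farthest from the controls at 54.2, followed by replicate 1 at 33.4 and replicate 3 at 6.71, with the controls at -33.1 to -28.9. Results that rest on replicate 2, the highest PEL library for all 5 genes, are given with and without it. Replicate 3 stood apart at the other end, nearest the controls. Estimates without it are also given for Ccl2, Cxcl1 and Il6. In bulk tissue, a change in the number of cells that make a transcript and a change in the transcript per cell cannot be told apart. Because no table pairs the identifiers with symbols, markers of leukocytes, glia, vessels and the median eminence itself, and the receptors of these ligands, were not analysed here.

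**Figure D1:**
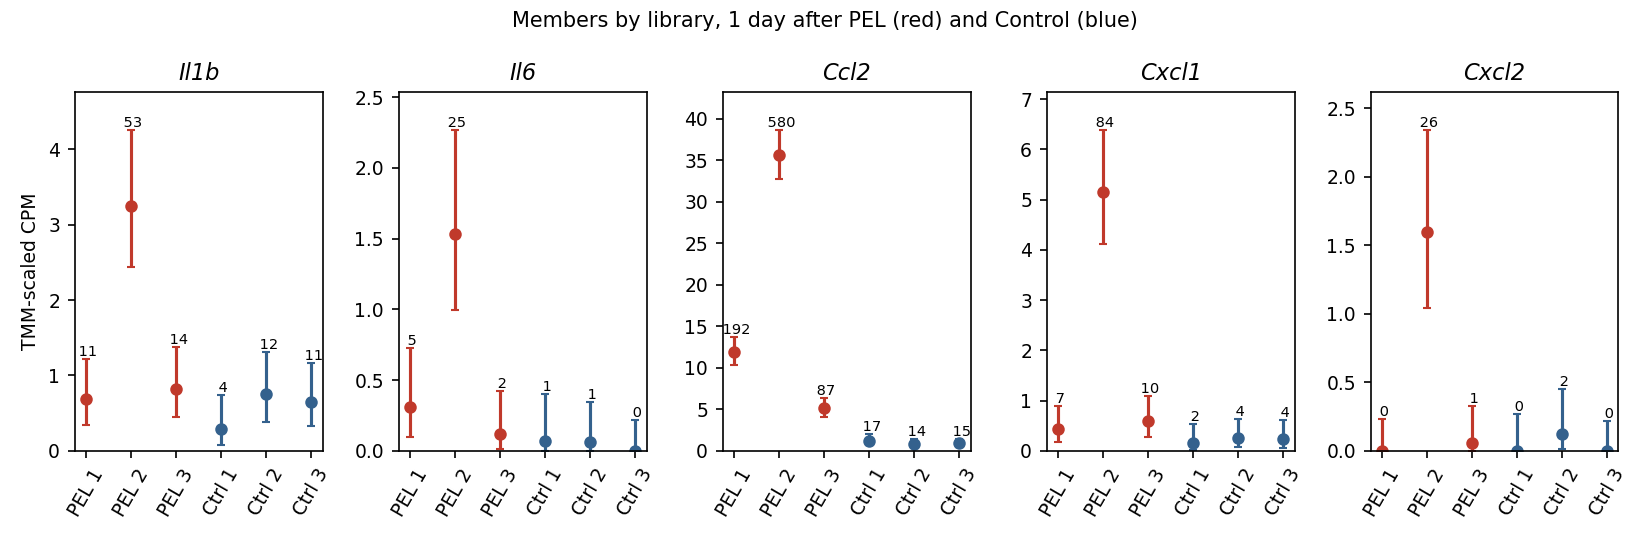
TMM-scaled CPM (vertical axis, from 0, a separate scale per gene) of the 5 genes in each library, with 95% exact Poisson intervals as bars and the number of reads above each point; PEL libraries are red and control libraries blue. PEL replicate 2 was the highest library for all 5 genes, and Ccl2 was above the controls in each PEL library, at 5.12 to 35.6 CPM.

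Ccl2 had 11.9, 35.6 and 5.12 CPM in PEL replicates 1, 2 and 3, against 1.23, 0.874 and 0.889 CPM in Control replicates 1, 2 and 3. The groups did not overlap, and the lowest PEL library was above the highest control library by more than the counting error of either, with intervals of 4.10 to 6.31 CPM and 0.718 to 1.97 CPM. The group means were 17.5 ± 16.0 CPM after PEL and 0.999 ± 0.203 CPM in controls (SD, n = 3 each). These values stood on 859 reads in the PEL libraries and 46 reads in the controls. The log2 fold change was 4.14 (SE 0.73), with an edgeR quasi-likelihood adjusted p of 0.0203 over 17125 rows. This placed Ccl2 at rank 12 by log2 fold change among all rows tested and at rank 9 among the 760 rows called higher, whose median log2 fold change was 1.07. Rows called higher were 4.44% of those tested; of the 2 genes of this set that could be tested, Ccl2 was called and Il1b was not. An exact two-sided permutation test on log2(CPM + 1) gave p = 0.1, the smallest that 3 against 3 samples allow.

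The size of the Ccl2 rise differed between PEL libraries by more than counting error. Against the pooled control reads, Ccl2 was 36.1-fold higher in PEL replicate 2 (95% counting interval 26.7 to 49.9), 12.1-fold higher in replicate 1 (8.72 to 17.05) and 5.19-fold higher in replicate 3 (3.59 to 7.59). None of these 3 intervals overlapped another. Without PEL replicate 2 the estimate was 3.09 on the log2 scale (SE 0.40), with an edgeR adjusted p of 0.00915, so Ccl2 was still called, in a fit that called 3.21% of rows higher. Without PEL replicate 3 it was 4.58 (SE 0.50, edgeR adjusted p = 0.00316). That fit called 1468 rows higher, against 760 with all 6 libraries. With no filter on low counts, the same omission called 5.5% of rows higher, against 3.52% with all 6 libraries. The direction held in every fit, but the call did not. Leaving out Control replicate 1, 2 or 3 gave edgeR adjusted p-values of 0.0901, 0.103 and 0.0954, and leaving out PEL replicate 1 gave 0.0611, with log2 fold changes of 4.06 to 4.36. Those 4 fits called few rows of any kind, with 0.957%, 0.953%, 1.2% and 1.33% of rows higher. With all 6 libraries, limma-voom gave 3.68 (SE 1.22, adjusted p = 0.134) and called 3.05% of rows higher, and the DESeq2 Wald test gave 4.14 (SE 0.82, adjusted p = 2.12e-05) and called 6.67% higher.

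**Figure D2:**
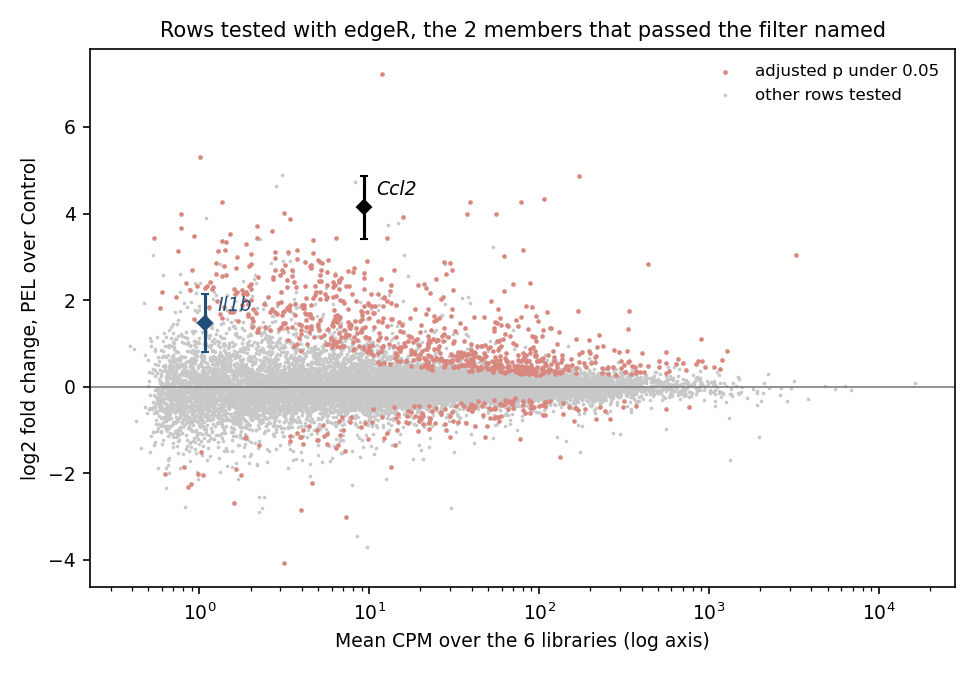
Log2 fold change, PEL over Control, against mean CPM over the 6 libraries (log axis) for the 17125 rows tested with edgeR; pale red points have an adjusted p under 0.05, grey points do not, and bars on the named genes are standard errors. Ccl2 lies at 4.14 among the largest rises, and Il1b at 1.47 lies among low-count rows that were not called.

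Cxcl1, a neutrophil chemoattractant, had 0.434, 5.15 and 0.588 CPM in PEL replicates 1, 2 and 3, against 0.145, 0.250 and 0.237 CPM in Control replicates 1, 2 and 3. In reads these values were 7, 84 and 10 in the PEL libraries, against 2, 4 and 4 in the controls. The groups did not overlap, but PEL replicates 1 and 3 had intervals of 0.175 to 0.894 and 0.282 to 1.08 CPM, which overlapped those of the controls. Against the pooled control reads, replicate 3 was 2.74-fold higher (95% counting interval 1.03 to 7.35) and replicate 1 was 2.03-fold higher (0.654 to 5.90). The means were 2.06 ± 2.68 CPM after PEL and 0.211 ± 0.0572 CPM in controls (SD, n = 3 each). Replicate 2 carried 83.4% of the CPM summed over the PEL libraries. Cxcl1 did not pass the filter on low counts. In the fit with no filter, over 24538 rows of which 3.52% were called higher, Cxcl1 had a log2 fold change of 3.22 (SE 0.94) and an edgeR adjusted p of 0.0898.

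Whether Cxcl1 was called depended on the tool, and its size on PEL replicate 2. DESeq2, which filters rows by its own rule, gave a log2 fold change of 3.28 (SE 0.97) and an adjusted p of 0.0126. Without PEL replicate 2, the edgeR estimate was 1.24 (SE 0.65, adjusted p = 0.398). Without PEL replicate 3 it was 3.66 (SE 0.93, edgeR adjusted p = 0.0507), in a fit that called 5.5% of rows higher. On the pooled reads, Cxcl1 was 9.53-fold higher after PEL (95% counting interval 4.98 to 20.5) with replicate 2 and 2.39-fold higher (1.04 to 5.85) without it. Replicate 2 itself was 24.0-fold above the pooled controls (12.4 to 52.0) and 10.04-fold above the other PEL libraries pooled (5.91 to 18.0).

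Cxcl2 was at or near 0 outside a single library. It had 0, 26 and 1 reads in PEL replicates 1, 2 and 3, against 0, 2 and 0 reads in Control replicates 1, 2 and 3. In CPM, PEL replicate 2 was at 1.59 (95% interval 1.04 to 2.34), and no other library was above 0.125. The groups overlapped, since PEL replicate 1 had no reads and Control replicate 2 had some. Replicate 2 held 96.4% of the PEL CPM. The pooled ratio was 12.7, with a counting interval of 3.20 to 111 that reflects the 2 control reads. In the fit with no filter the edgeR adjusted p was 0.296, and no difference could be detected at this depth between the groups without replicate 2, where 1 read stood against 2.

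Cxcl1 and Cxcl2 are next to each other in the GRCr8 assembly of the rat genome, with 0 annotated genes between them. They belong to a family of related chemokines, and how reads that fit more than 1 member were counted is not stated in any source used here. Reads shared between them were not examined. Their separate values are uncertain to that extent.

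Il6, a cytokine whose signalling receptor chain is shared with related cytokines, had 5, 25 and 2 reads in PEL replicates 1, 2 and 3. Control replicates 1, 2 and 3 had 1, 1 and 0 reads. This corresponded to 0.310, 1.53 and 0.118 CPM after PEL, against 0.0725, 0.0625 and 0 CPM in controls. The groups did not overlap, yet replicate 3 was separated from the highest control library by a single read. Against the pooled control reads, replicate 1 was 7.23-fold higher (95% counting interval 1.18 to 76.0) and replicate 3 was 2.74-fold higher (0.199 to 37.9). Over all libraries the ratio of pooled reads was 15.1, and its counting interval was wide, at 3.85 to 130. Without replicate 2 the pooled ratio was 4.93 (0.939 to 48.6), an interval that includes 1. Il6 failed the filter, and in the fit with no filter its log2 fold change of 3.69 (SE 1.17) had an edgeR adjusted p of 0.114. Without PEL replicate 3 the estimate was 4.19 (SE 1.03, adjusted p = 0.0444), in a fit that called 5.5% of rows higher, and without PEL replicate 2 it was 2.12 (SE 1.21, adjusted p = 0.447). DESeq2 gave no adjusted p for it.

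Il1b, a cytokine made as an inactive precursor and released after cleavage, was already detected in controls. The counting intervals of the control libraries overlapped those of PEL replicates 1 and 3. Il1b had 0.682, 3.25 and 0.823 CPM in PEL replicates 1, 2 and 3, against 0.290, 0.749 and 0.652 CPM in Control replicates 1, 2 and 3. Only replicate 2 lay clearly above the controls. PEL replicate 1 was below Control replicate 2, so the groups overlapped. The means were 1.59 ± 1.44 CPM after PEL and 0.564 ± 0.242 CPM in controls (SD, n = 3 each), from 78 and 27 reads. The log2 fold change of 1.47 (SE 0.68) had an edgeR adjusted p of 0.250, and without PEL replicate 2 it was 0.40 (SE 0.50, adjusted p = 0.705). The pooled ratio of 2.73 (95% counting interval 1.74 to 4.40) was 1.30 (0.726 to 2.33) without that library.

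**Figure D3:**
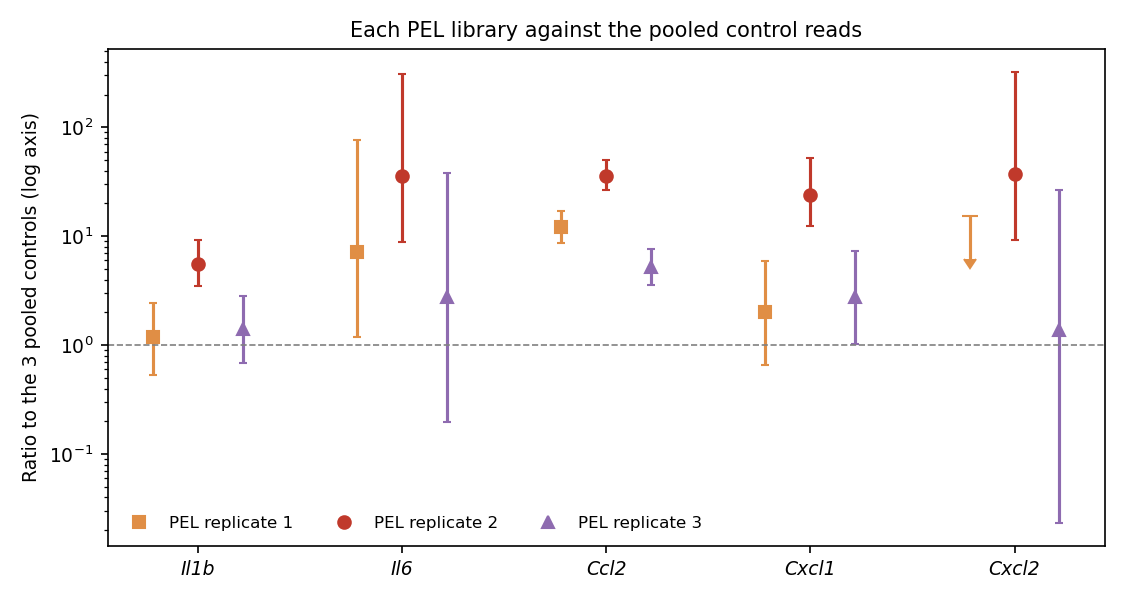
Ratio of each PEL library to the pooled reads of the 3 controls (log axis) with 95% exact counting intervals; the dashed line marks a ratio of 1, and the arrow is the upper bound for Cxcl2 in PEL replicate 1, which had 0 reads. PEL replicate 2 is above 1 for all 5 genes, from 5.62 for Il1b to 37.2 for Cxcl2, whereas replicates 1 and 3 are both above 1 beyond counting error for Ccl2 only.

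Across the set, 3 of the 5 genes (Ccl2, Cxcl1 and Il6) had every PEL value above every control value, where 12.3% of all rows with at least 1 read did so. PEL replicate 2 was the highest PEL library for 5 of 5 genes. It was so for 36.2% of the 17125 rows tested and for 69.1% of the 760 rows called higher. Between the other PEL libraries, Ccl2 was higher in replicate 1 than in replicate 3 by more than counting error. For Il1b, Il6, Cxcl1 and Cxcl2 the counting intervals of these libraries overlapped, so their order could not be told at this depth. Together the 5 genes took 13.1, 47.8 and 6.65 CPM, here without TMM scaling, in PEL replicates 1, 2 and 3, against 1.74, 2.07 and 1.79 in Control replicates 1, 2 and 3. Ccl2 made up 89.3%, 75.5% and 76.3% of these reads after PEL, against 70.8%, 42.4% and 50.0% in controls; such shares of reads also depend on transcript length.

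Ratios of reads within a library, which do not depend on scaling, were compared for all 10 pairs, as values, since 3 against 3 samples cannot reach an exact p under 0.1. They were computed as log2 ratios with 0.5 read added to each count. The log2 ratio of Ccl2 to Il1b was 4.07, 3.44 and 2.59 in PEL replicates 1, 2 and 3, against 1.96, 0.21 and 0.43 in Control replicates 1, 2 and 3, so the groups did not overlap. The mean difference, PEL minus Control, was 2.50 (exact two-sided permutation p = 0.1, adjusted p = 0.4 over 10 pairs). The log2 ratio of Cxcl1 to Il1b was -0.62, 0.66 and -0.47 after PEL, against -0.85, -1.47 and -1.35 in controls, a mean difference of 1.08 (exact permutation p = 0.1, adjusted p = 0.4). It too did not overlap, but outside PEL replicate 2 it rested on at most 14 reads of either gene in a library. The other 8 pairs overlapped between the groups. The log2 ratio of Ccl2 to Cxcl1 varied within the PEL group itself, at 4.68 in replicate 1, 2.78 in replicate 2 and 3.06 in replicate 3: in replicate 1, Ccl2 was 12.1-fold above the pooled controls while Cxcl1 was 2.03-fold above them (95% counting interval 0.654 to 5.90).

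**Figure D4:**
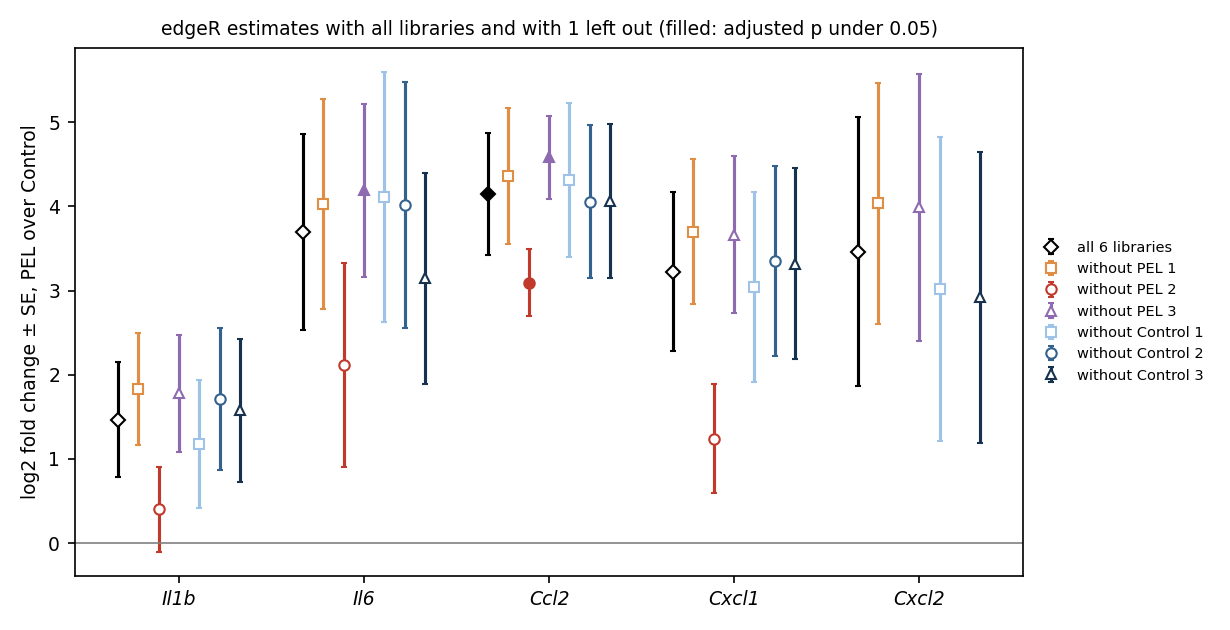
edgeR log2 fold changes, PEL over Control, with standard errors as bars, for the fit with all 6 libraries and for fits without 1 library; filled symbols have an adjusted p under 0.05. Il6, Cxcl1 and Cxcl2 come from fits with no filter on low counts, and Cxcl2 is not drawn without PEL replicate 2 or Control replicate 2, where a group had at most 1 read. For Il1b, Il6, Ccl2 and Cxcl1, the lowest estimate is the one without PEL replicate 2.

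The promoters of the set are shown as background, because NF-kB is known to act on genes of this kind. Whether NF-kB had any part in the values above was not tested. RefSeq sequences of the GRCr8 assembly were found by symbol for 4 of the 5 genes, and Ccl2 had none in the table used. Each stretch holds the 250 bases before the annotated start of the gene, 5′ to 3′ on the gene's strand, which is the minus strand in each case, with matches to the NF-kB consensus in capitals. The stretches lie at chr3:137036582-137036831 for Il1b, chr4:5894576-5894825 for Il6, chr14:17479322-17479571 for Cxcl1 and chr14:17467256-17467505 for Cxcl2.
Il1b: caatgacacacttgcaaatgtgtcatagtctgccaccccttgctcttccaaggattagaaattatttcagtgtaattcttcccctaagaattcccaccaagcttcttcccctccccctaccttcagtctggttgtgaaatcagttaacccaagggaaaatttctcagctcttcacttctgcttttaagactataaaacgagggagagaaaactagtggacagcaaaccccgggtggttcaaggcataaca
Il6: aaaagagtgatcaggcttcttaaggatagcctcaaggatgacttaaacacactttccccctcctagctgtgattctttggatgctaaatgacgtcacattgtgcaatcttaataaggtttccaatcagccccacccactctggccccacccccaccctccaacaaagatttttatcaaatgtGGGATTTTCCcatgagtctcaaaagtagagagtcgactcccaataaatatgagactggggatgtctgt
Cxcl1: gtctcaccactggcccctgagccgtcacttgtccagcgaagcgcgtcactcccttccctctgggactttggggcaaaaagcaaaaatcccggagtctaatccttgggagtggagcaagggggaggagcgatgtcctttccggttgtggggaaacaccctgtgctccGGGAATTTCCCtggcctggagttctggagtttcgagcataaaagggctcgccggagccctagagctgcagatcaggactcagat
Cxcl2: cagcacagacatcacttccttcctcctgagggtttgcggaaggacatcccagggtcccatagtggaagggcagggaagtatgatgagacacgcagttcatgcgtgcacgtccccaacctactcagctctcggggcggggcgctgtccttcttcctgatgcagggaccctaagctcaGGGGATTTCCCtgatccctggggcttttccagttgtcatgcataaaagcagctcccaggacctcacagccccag
The NF-kB consensus of 10 bases, searched on both strands, was matched in the stretches of Il6, Cxcl1 and Cxcl2 and not in that of Il1b. The first matching base lay 68 bases before the start in Il6, 84 in Cxcl1 and 74 in Cxcl2, and in Cxcl1 and Cxcl2 overlapping matches formed a single run. Of 33469 rat promoter stretches of the same length, 6.33% held a match. The cyclic AMP response element TGACGTCA was present in Il6 and in 1.59% of all stretches, and the TATA box TATAAA in Il1b and in 12.9%. These matches describe letters in these windows and are not measured binding.

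The mean profile of the 5 genes, taken as the mean of their standardised log2(CPM + 1) values over the 6 libraries, was compared with 12548 other Ensembl rows of at least 5 CPM. The rows most like it were ENSRNOG00000008713 (Pearson r = 0.999, n = 6 libraries) and ENSRNOG00000018009 (r = 0.996). Such likeness was not rare, with r above 0.9 over the 6 libraries in 561 of the 12548 rows, and its cause was not tested. Their levels hardly moved: ENSRNOG00000008713 had 47.5, 55.3 and 46.9 CPM in PEL replicates 1, 2 and 3, against 45.1, 45.7 and 45.1 CPM in Control replicates 1, 2 and 3, which edgeR put at a log2 difference of 0.15 (SE 0.09, adjusted p = 0.342). The likeness therefore lies in the shape of the mean profile, with PEL replicate 2 highest, and not in the size. A single high library does not describe Ccl2, which was above the controls in each PEL library. Between pairs of the 5 genes, r was between 0.747 for Ccl2 with Cxcl2 and 0.979 for Il1b with Cxcl1, over the same 6 libraries. All 5 genes were highest in PEL replicate 2, and how far these values rest on that library was not tested.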

How the data were processed

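The authors' deposited table gives raw counts of reads for each gene in 6 libraries. Per the submitters' processing notes, HISAT2 2.0.5, featureCounts 1.5.0-p3 and DESeq2 1.16.1 were used; no source used here states the genome build, annotation, strand setting or read filters. The 5 genes and all lists were chosen with earlier results of these data known. Lists of related genes and cell type markers need symbols; of 47357 RefSeq gene rows, 0 carry an Ensembl identifier, so these lists were not run. The named genes are the 5 members and the 2 Ensembl rows of at least 5 CPM most like their mean profile.

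Counts were tested with edgeR 4.0.16 in R 4.3.3 (filterByExpr, minimum count 10, which came to 0.615 CPM in 3 libraries; TMM; quasi-likelihood F test, group as the only term; Benjamini-Hochberg adjustment, called under 0.05). The fit was tested on simulated counts. Standard errors were derived from the F statistic, as the absolute log2 fold change over its root. Il6, Cxcl1 and Cxcl2 failed the filter and were taken from the same fit with every row of at least 1 read. Alternatives were other scalings, filters, DESeq2 1.42.0, limma-voom (limma 3.58.1), a block for the replicate number, and omission of each library. Read ratios carry 95% exact intervals from scipy 1.17.1, for counting error only. The library totals of 13756297 to 17144108 reads set the precision of low counts. No pair of libraries within a group matched within sampling noise, so none was treated as a repeat of another. This check cannot tell separate animals from separate preparations of the same tissue. Separate animals are not stated, and p-values measure only the spread among libraries, which may be technical. Neither dates nor batches are labelled.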

Additional observations from a re-analysis of the deposited data

How the results depend on the processing

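Over the alternatives run, the direction after PEL was kept for Il1b, Il6, Ccl2 and Cxcl1; for Cxcl2 the log2 fold change was -0.41 (SE 1.95) without PEL replicate 2, where 1 read stood against 2. Leaving out 1 library gave log2 fold changes of 0.40 to 1.83 for Il1b, 2.12 to 4.19 for Il6, 3.09 to 4.58 for Ccl2, 1.24 to 3.70 for Cxcl1 and -0.41 to 6.16 for Cxcl2. The last value, without Control replicate 2, is set against controls with 0 reads, so it depends on the prior count and is no estimate of size. Ccl2 was called in edgeR under each scaling and filter and under DESeq2, but not by limma-voom (3.68, adjusted p = 0.134). The genes of the set called were 1 as reported, where 4.44% of all rows tested were called higher. They were 2 with DESeq2 (Ccl2, and Cxcl1 at 3.28), beside 6.67% of rows, and 0 with limma-voom, beside 3.05%. In the filtered edgeR fit they were 0 to 1 with a library left out. The fits with 0 called 0.953% to 1.33% of rows higher. In the fit with no filter, Il6 also passed without PEL replicate 3 (4.19), where 5.5% of rows were called higher. Over all rows 930 were called, 1636 with DESeq2, 547 with the replicate number as a block and 179 to 2107 with a library left out; the causes were not tested. With the replicate block, Ccl2 had a log2 fold change of 3.78 (edgeR adjusted p = 0.0199) and no other gene of the set was called. That fit called 451 rows higher, against 760 as reported. Same-numbered libraries did not deviate together (correlations of 0.002, -0.067 and -0.066), so the numbers are not taken as pairs. The differences in within-library ratios, which 3 against 3 samples cannot put past a threshold, moved by less than the SD pooled over both groups, but Cxcl1 to Il6 (-0.96 to 0.25) and Cxcl2 to Il1b (-0.56 to 1.20) changed sign with a library left out. The stricter filter gave no value for Il1b, Il6, Cxcl1 and Cxcl2. Cxcl2 and Il6 rest on 29 and 34 reads in all, which limits what they can show.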
